A study of Mus musculus with 3 samples.

Results

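Retnla, Ccl24, Arg1, Chil3, Mrc1 and Cd163 are 6 of the 32285 genes in the deposited count matrices, and they are commonly read as marks of alternative activation in mouse macrophages. They were chosen by symbol, with their levels in these same libraries already known, so the differences reported for them are descriptions and carry no test. All 3 libraries hold immune cells of the infrarenal aorta of wild-type mice, enriched with CD45 and viability beads and made with a 10x Genomics 3′ v2 kit. The Sham library is labelled as treated with PBS and pooled the cells of 50 control aortas. The AAA_14 library (AAA, abdominal aortic aneurysm) is labelled as treated with elastase, an enzyme applied to the aorta to produce an aneurysm, and the protocol gives 20 pooled aortas for the AAA group. The library titled AAA_7 carries an aneurysm title but a PBS treatment label, so its treatment is in doubt, and no aorta number is given for it alone. The labels give neither the unit of the 7 and 14 nor strain, age or sex. With 1 pooled library per group there is no replicate spread, and every interval below covers counting error only.

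Alternative activation is the macrophage state induced by interleukin 4 and interleukin 13, which signal through a receptor containing Il4ra to the transcription factor STAT6. The 6 genes encode secreted proteins, surface receptors and an enzyme that are used as marks of that state. Retnla encodes the secreted protein RELM alpha (Fizz1), Ccl24 the eosinophil-attracting chemokine eotaxin-2, Arg1 the arginine-degrading enzyme arginase 1, and Chil3 the secreted chitinase-like protein Ym1. Mrc1 encodes the mannose receptor CD206 and Cd163 the scavenger receptor for haemoglobin-haptoglobin complexes; both also mark resident tissue macrophages, including those of the arterial adventitia.

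The promoter of Retnla is shown because it is the gene with the widest difference between libraries and a known STAT6 target. That of Chil3 is shown beside it as a member for which no direction between the libraries could be given, its ratio changing sign between settings. Whether these patterns bear on the levels was not tested. The stretches are the parts of the 300-base RefSeq promoter windows (GRCm38.p6, 250 bases before to 50 after the RefSeq start site) that lie upstream of the gene in GENCODE vM21, written 5′ to 3′ on the gene's strand. The Retnla stretch is chr16:48842359-48842550 on the plus strand and the Chil3 stretch chr3:106167565-106167814 on the minus strand. Capitals mark a match to TTCNNNNGAA, the STAT6-type pattern, which reads the same on both strands, or to TTGCNNAA, a C/EBP-type pattern searched on both strands.
Retnla: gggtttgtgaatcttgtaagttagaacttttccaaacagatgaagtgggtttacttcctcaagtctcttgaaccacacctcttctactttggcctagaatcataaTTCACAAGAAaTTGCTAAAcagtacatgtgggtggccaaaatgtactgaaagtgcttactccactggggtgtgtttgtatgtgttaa
Chil3: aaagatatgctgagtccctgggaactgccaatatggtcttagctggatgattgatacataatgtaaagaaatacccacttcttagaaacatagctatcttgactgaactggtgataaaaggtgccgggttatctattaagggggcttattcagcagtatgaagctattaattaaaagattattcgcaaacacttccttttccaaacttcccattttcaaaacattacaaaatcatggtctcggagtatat
In the Retnla window the STAT6-type match TTCACAAGAA began 145 bases before the RefSeq start site. The C/EBP-type match TTGCTAAA began 134 bases before that site, with a gap of 1 base between them. The printed stretch ends short of the RefSeq start site, and in it the matches begin at bases 106 and 117. The windows of Chil3, Mrc1 and Cd163 held 0 matches to either pattern, which says only that these letters are not in those windows. Of 32851 mouse promoter windows of the same length, 6.95% held the STAT6-type pattern, 10.8% the C/EBP-type pattern and 0.840% both. Of the 6 genes, 4 were matched in the promoter table; Ccl24 and Arg1 were not.

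The deposited files held 3785 barcodes for Sham, 3496 for AAA_7 and 10108 for AAA_14, with 13677839, 13341534 and 67243700 unique molecular identifiers (UMIs, one per captured transcript molecule). Requiring at least 200 genes and at most 10% mitochondrial UMIs left 1235, 3229 and 5286 cells. The mitochondrial limit was exceeded by 66.9%, 7.52% and 47.2% of the barcodes, so the libraries stand apart in that measure. The kept cells of AAA_7 and AAA_14 shared 8 barcode sequences, Sham and AAA_14 shared 3, and Sham and AAA_7 shared 1. Macrophages were taken as cells with at least 3 UMIs of the complement genes C1qa, C1qb and C1qc together, called C1q cells here. There were 2 of them in Sham, 742 (23.0%) in AAA_7 and 1008 (19.1%) in AAA_14, so Sham allows no statement on these cells. Their median depth was 5558.5 UMIs in AAA_7 and 10480.5 in AAA_14, and their median mitochondrial share was 0.958% and 5.18%. All 8 macrophage markers of a fixed list were found in at least 10% of the C1q cells of both aneurysm-titled libraries. That list includes C1qa, C1qb and C1qc, on which the gate itself rests, so their detection is no separate support. The others are Adgre1, Apoe, Ms4a7, Trem2 and Csf1r. The gate is a range and not a cell type, since 91 and 88 of its cells had only 3 to 5 C1q UMIs, and a further 702 and 1289 cells had 1 or 2. Of the other classes' marker lists, monocyte genes had the highest median per C1q cell, 5 UMIs in AAA_7 and 9 in AAA_14. Plasmacytoid dendritic cell genes followed with 4 and 8. B cell genes had medians of 1 and 4, neutrophil genes 1 and 3, plasma cell genes 1 and 2, and T cell genes 0 in both. Summed over the C1q cells, B cell genes came to 406 UMIs per 1000000 UMIs of these cells (CPM) in AAA_7 and 1749 in AAA_14, plasma cell genes to 242 and 2688 CPM, fibroblast genes to 30.6 and 945 CPM, and red cell genes to 5.13 and 1922 CPM. All 4 lists were thus higher in the C1q cells of AAA_14. The part of these differences in the results below was not tested, beyond the values without cells carrying lymphocyte genes.

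Retnla was the member that differed most between the libraries. In C1q cells it had 89 UMIs in AAA_7 and 9692 in AAA_14, which is 19.0 CPM (95% exact Poisson interval 15.3 to 23.4) against 798 CPM (782 to 814). AAA_14 was 41.9-fold higher, a log2 ratio with 0.5 counts added of 5.38 (exact conditional interval 5.09 to 5.71). That difference ranked 31 of the 12812 genes with at least 10 UMIs in these cells of both libraries together. In Sham, Retnla had 4 UMIs in 3 of all 1235 cells and none in the 2 C1q cells. Over 14 alternative settings, thinning every cell to 1000 UMIs among them, the log2 ratio ran from 4.43 to 5.62.

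Ccl24 was the other member past 2-fold. It had 107 UMIs in AAA_7 and 828 in AAA_14, or 22.9 CPM (18.8 to 27.7) against 68.2 CPM (63.6 to 73.0), 2.98-fold higher in AAA_14 with a log2 ratio of 1.57 (1.28 to 1.88). The transcripts of RELM alpha and eotaxin-2 were thus higher in the same library. Arg1 had 189 UMIs in AAA_7 and 939 in AAA_14, or 40.4 and 77.3 CPM, with a log2 ratio of 0.93 (0.71 to 1.17), just short of 2-fold. Without the highest cell of each library, a setting chosen after the data were seen, the Arg1 value was 1.15, past 2-fold. Chil3 had 223 and 527 UMIs, or 47.7 and 43.4 CPM, and its log2 ratio of -0.14 had an interval from -0.36 to 0.10 that includes 0. No direction is given for Chil3, since its ratio was 1.08 with a gate of 1 C1q UMI and -1.11 in thinned cells.

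The 2 surface receptors had nearly equal levels in both libraries. Mrc1 had 3777 UMIs in AAA_7 and 10471 in AAA_14, or 808 and 862 CPM, a log2 ratio of 0.09 (0.04 to 0.15). Cd163 had 579 and 1619 UMIs, or 124 and 133 CPM, a log2 ratio of 0.11 (-0.03 to 0.25). Both values lay close to the median over all 12812 genes, which was 0.08. Mrc1 changed sign under some settings, to -0.14 with a mitochondrial limit of 5% and to -0.34 with a gate of 1 C1q UMI, so no direction is given for it. Cd163 likewise ran from -0.40 with the 5% limit to 0.72 with cells weighted equally. In the 2 Sham C1q cells Mrc1 had 20 and 2 UMIs, Cd163 had 2 UMIs in 1 cell, Ccl24 had 1 UMI, and Arg1 and Chil3 had none. In all, 2 of the 6 members were past 2-fold upward in AAA_14 and 0 downward, where 10.5% of the 12812 genes were at least 2-fold higher, 3.68% lower and 14.2% either way. The members were chosen with this contrast known, so nothing is read from that count.

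**Figure D1:**
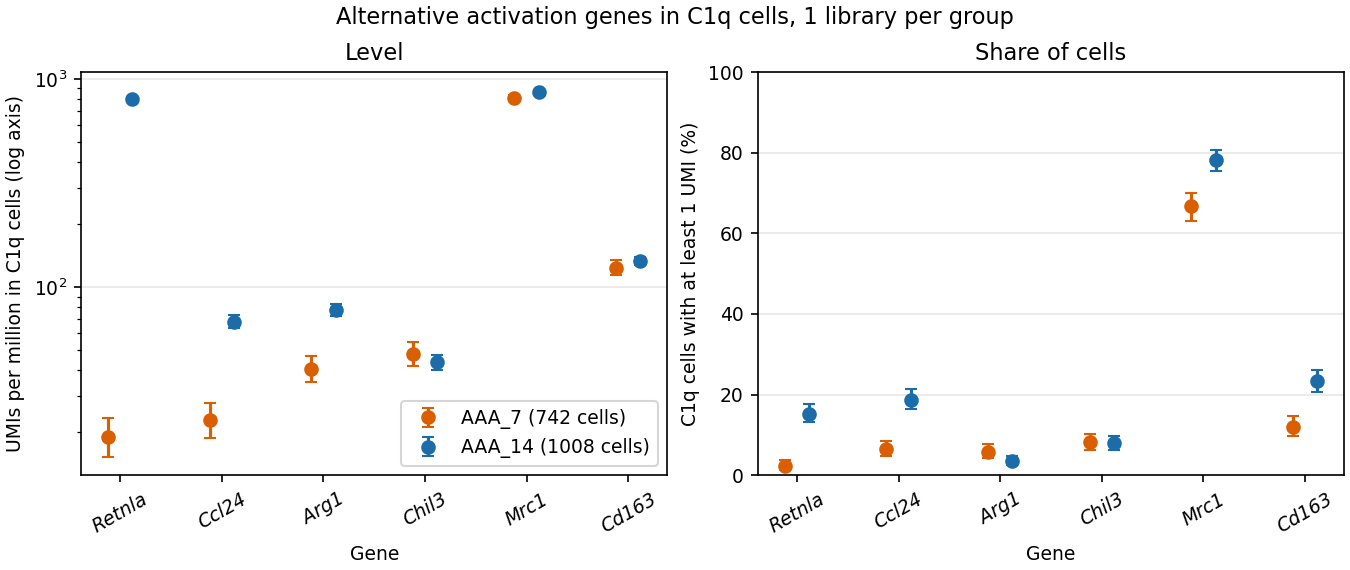
Level in CPM (log axis, left) and share of C1q cells with at least 1 UMI (percent, right) of the 6 genes in the libraries AAA_7 and AAA_14, with 95% intervals for counting error. The Retnla points lie far apart at 19.0 and 798 CPM, while those of Mrc1 and Cd163 nearly coincide.

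How many cells carried each gene was a separate matter from its level. Retnla was found in 17 C1q cells of AAA_7, or 2.29% (Clopper-Pearson 1.34 to 3.64), and in 154 of AAA_14, or 15.3% (13.1 to 17.6). After thinning each cell to 1000 UMIs, which left out 48 shallower C1q cells of AAA_7 and 3 of AAA_14, the shares were 1.59% and 8.66%. Ccl24 was found in 48 cells (6.47%) of AAA_7 and 189 (18.8%) of AAA_14, and in 1.44% and 6.47% after thinning. For both genes the share and the level were higher in the same library.

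Mrc1 was the most widespread of the 6, in 495 cells (66.7%) of AAA_7 and 788 (78.2%) of AAA_14, and in 42.9% and 51.9% after thinning. Cd163 was found in 89 cells (12%) and 235 (23.3%), or 7.78% and 9.25% after thinning, where the intervals overlapped. Chil3 was found in 60 cells (8.09%) and 79 (7.84%), or 2.88% and 1.59% after thinning. Arg1 was found in 43 cells (5.80%) of AAA_7 and 35 (3.47%) of AAA_14. Since its CPM lay the other way, no order of the libraries is read from the Arg1 shares.

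Lymphocytes give the share that free RNA can produce in these droplets. In AAA_14, Retnla had at least 1 UMI in 3.62% of 1243 B cells (median depth 4395 UMIs) and 5.18% of 926 T cells (median depth 6255.5 UMIs), all but 1 cell of each class with 1 or 2 UMIs. Cells with at least 3 Retnla UMIs numbered 92 of the 1008 C1q cells (9.13%), 1 of the B cells and 1 of the T cells. Of the 154 Retnla-carrying C1q cells 53 had a single UMI, and carriers with 1 or 2 UMIs cannot be told apart from that background. Cells with at least 10 UMIs numbered 71 among C1q cells and 0 among B and T cells. In AAA_7 the share was 0.445% of B cells (median depth 1819 UMIs) and 0.181% of T cells (median depth 2717 UMIs). Thinned to 1000 UMIs, the AAA_14 shares were 1.06% in B cells and 0.977% in T cells, against 8.66% in C1q cells. Ccl24, Arg1 and Cd163 were each found in under 1% of the B and of the T cells of both libraries. Mrc1 was found in 6.11% of B cells and 4.75% of T cells in AAA_14, far below its share in C1q cells.

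The Retnla transcripts of AAA_14 sat in few cells. Of the 154 carriers, 30 had 2 to 9 UMIs, 44 had 10 to 99 and 27 had at least 100, and those 27 cells held 82.1% of the gene's UMIs in C1q cells. The highest cells had 734 and 584 UMIs. The 11 highest cells held 50% or more of the UMIs and 39 held 90%, of 1008. In AAA_7 the highest cells had 19 and 19 UMIs, and none reached 100. Without the 10 cells with most Retnla in AAA_14 the log2 ratio was 4.43, an alternative chosen after the data were seen. Retnla carriers were no deeper than the rest in AAA_14, with a median of 9998 UMIs against 10548.5 in C1q cells without it.

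Arg1 was also concentrated. In AAA_14 its highest cell had 132 UMIs, 4 cells had at least 100 and held 49.6% of the Arg1 UMIs, and 5 cells held at least 50%. In AAA_7 its highest cell had 49 UMIs and 4 cells held at least 50%. Its carriers in AAA_14 were deep cells, with a median of 16324 UMIs against 10334 in the other C1q cells. Chil3 reached 34 UMIs in a cell of AAA_7 and 84 in AAA_14, and 5 cells held at least 50% of it in each library. Ccl24 was more evenly spread, with highest values of 20 and 80 UMIs and at least 50% held by 8 cells in AAA_7 and 23 in AAA_14. Cd163 needed 17 and 46 cells, and Mrc1 82 and 178 cells, to reach 50% of their UMIs.

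**Figure D2:**
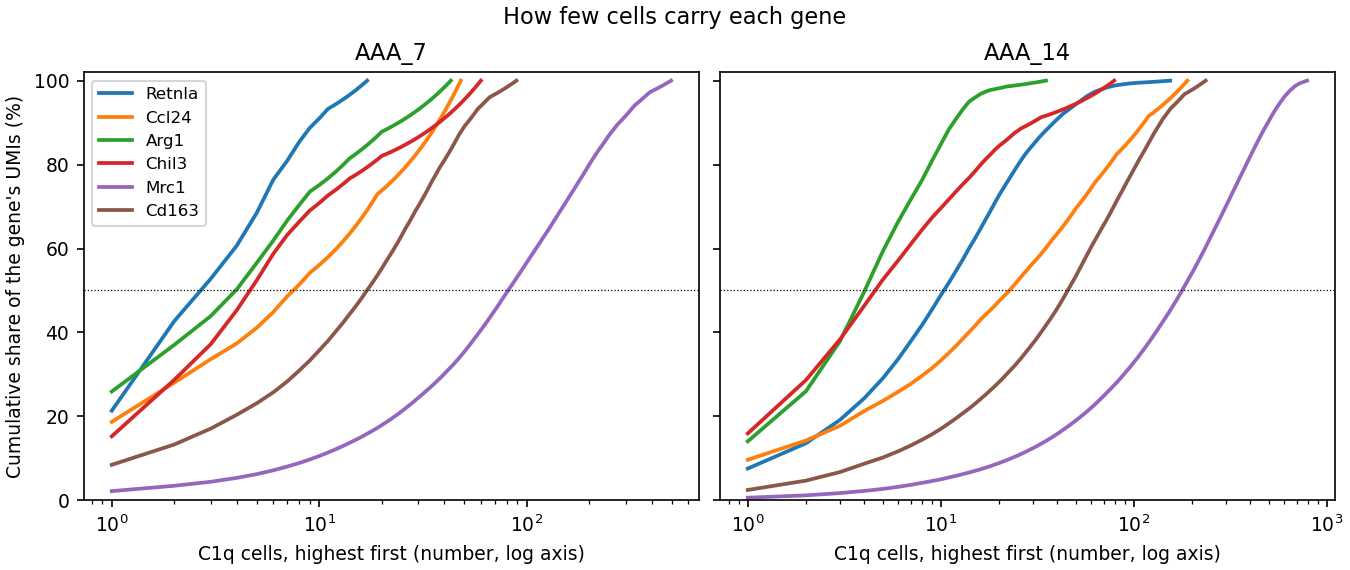
Cumulative share of each gene's UMIs (percent) against the number of C1q cells, cells ordered from the highest, in AAA_7 and AAA_14. The Arg1, Chil3 and Retnla curves climb within a few cells, with 50% of Retnla in 11 cells of AAA_14, and the Mrc1 curve climbs slowest, with 178 cells.

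The members fell into sets of genes found in the same cells. In AAA_14, Ccl24 was found in 49.4% (41.2 to 57.5) of the 154 C1q cells with Retnla and in 13.2% (11.0 to 15.7) of the 854 without. At 1000 UMIs per cell, with 87 carriers left, the shares were 27.6% and 4.47%. In AAA_7, Ccl24 was found in 7 of 17 cells with Retnla (41.2%) and in 5.66% of the others. In both libraries Ccl24 was therefore found more often in cells with Retnla.

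Cd163 showed the same relation to Retnla. It was found in 44.2% of cells with Retnla and 19.6% of the others in AAA_14 (24.1% and 7.84% thinned), and in 52.9% and 11.0% in AAA_7. For Ccl24, 65.1% of the carriers of AAA_14 had Cd163 against 13.7% of the other cells (44.6% and 6.81% thinned), and 35.4% against 10.4% in AAA_7, where the intervals overlapped once thinned (20.0% and 7.60%). For Mrc1, 85.7% of the Retnla carriers and 76.8% of the others had it in AAA_14, with overlapping intervals. Thinned, the Mrc1 shares were 75.9% and 49.7% and did not overlap. In AAA_7 all 17 Retnla carriers had Mrc1, against 65.9% of the other cells.

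The overlap with Ccl24 and Cd163 was greater in cells with more Retnla. Across C1q cells of AAA_14 with 0, 1 to 9 and at least 10 Retnla UMIs (854, 83 and 71 cells), Ccl24 was found in 13.2%, 28.9% and 73.2%. Its level in those bands was 39.6, 85.3 and 406 CPM. Cd163 was found in 19.6%, 28.9% and 62.0%, and Mrc1 in 76.8%, 78.3% and 94.4%. Arg1 was found in 3.75%, 1.20% and 2.82%, with no such order.

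Arg1 and Chil3 were not part of that set. In AAA_14, 3 of 154 Retnla carriers had Arg1 (1.95%, against 3.75% of the others) and 9 had Chil3 (5.84% against 8.20%), with overlapping intervals. Mrc1 was found in 51.4% of the 35 Arg1 carriers against 79.1% of the other C1q cells, and thinned in 1 of 19 against 52.8%. Cd163 was found in 5.71% of Arg1 carriers against 23.9%. Likewise 55.7% of the 79 Chil3 carriers had Mrc1 against 80.1%, and 8.86% had Cd163 against 24.5%. Thinned, Cd163 was found in 0 of 19 Arg1 carriers against 9.43% of the other cells and in 0 of 16 Chil3 carriers against 9.40%, with overlapping intervals in both. In AAA_7, unthinned, the intervals of all 4 comparisons of Arg1 or Chil3 carriers with Mrc1 or Cd163 overlapped. Of the 15 pairs of members in AAA_14, 5 were found together more often than in cells without the partner with intervals apart, 4 less often, and 6 overlapped; thinned, the numbers were 6, 2 and 7. In AAA_7 they were 6, 0 and 9, and thinned 4, 0 and 11. The same counts over pairs of all genes were not taken, so nothing is read from these numbers of pairs.

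**Figure D3:**
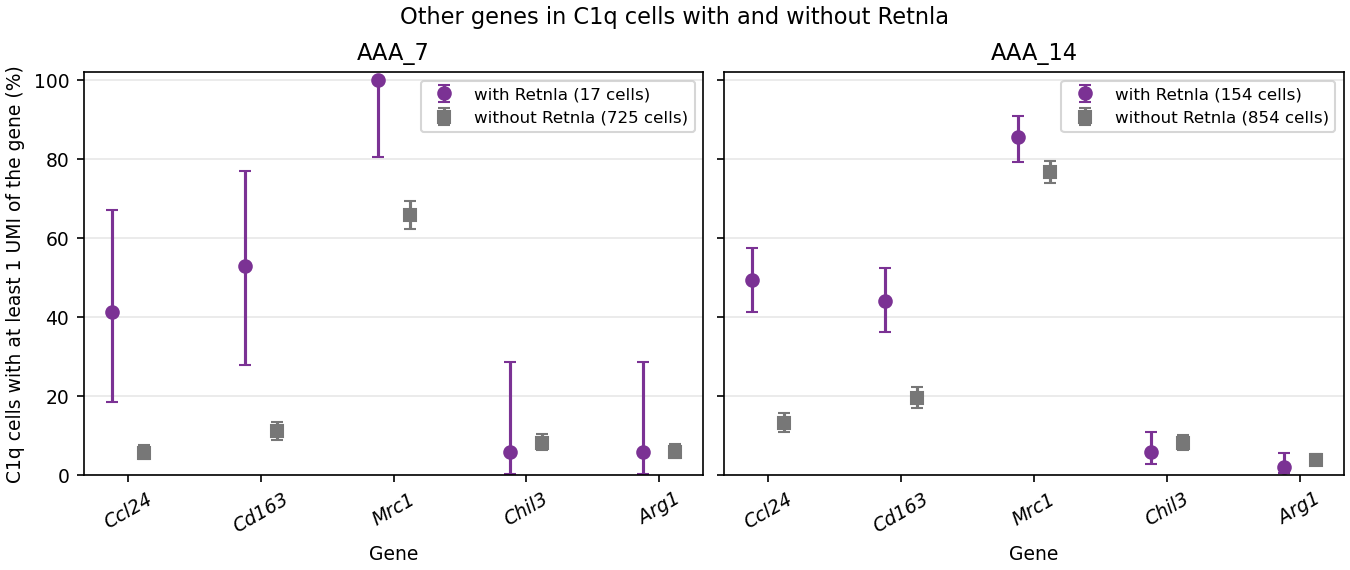
Share (percent, 95% Clopper-Pearson intervals) of C1q cells with each of the other 5 genes, in cells with and without Retnla, by library. Ccl24 stands at 49.4% with Retnla and 13.2% without in AAA_14, while the Arg1 and Chil3 intervals overlap.

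No C1q cell carried all 6 genes. In AAA_14, 147 carried none, 474 carried 1, 215 carried 2, 114 carried 3, 56 carried 4 and 2 carried 5. In AAA_7, 201 carried none, 372 carried 1, 132 carried 2, 32 carried 3 and 5 carried 4. Retnla, Ccl24 and Cd163 were together in 55 cells of AAA_14, 54 of which also had Mrc1, and in 4 cells of AAA_7, all with Mrc1. Retnla and Arg1 were together in 3 cells and 1 cell.

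All kept cells were clustered without the 6 genes, and the place of the set among the C1q cells differed between the libraries. A cluster led by Cd209f, Cd209g, Lyve1, Fcna and Ednrb, genes known from resident perivascular macrophages, had 35 C1q cells in AAA_7 and 90 in AAA_14. In AAA_14 those 90 cells were 8.93% of the C1q cells and held 72.2% of their Retnla, 59.2% of their Ccl24, 50.4% of their Cd163 and 17.0% of their Mrc1 UMIs. In AAA_7 the 35 cells held 29.2%, 29.9%, 57.0% and 19.1%. Arg1 had 0 UMIs in these cells in both libraries.

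Within that cluster Retnla had 26 UMIs in AAA_7 and 6995 in AAA_14, or 91.9 and 8182 CPM, and was found in 22.9% and 61.1% of the cells. It was 89.0-fold higher in AAA_14, a log2 ratio of 6.45 (5.92 to 7.09). Ccl24 had 113 and 573 CPM, a log2 ratio of 2.32 (1.82 to 2.90), and was found in 28.6% and 92.2%. Cd163 had 1167 and 954 CPM, and Mrc1 2546 and 2084 CPM, with log2 ratios of -0.29 for both. Within this cluster, Retnla and Ccl24 were thus higher in AAA_14, and Cd163 and Mrc1 slightly lower. These ratios by cluster were chosen after the data were seen.

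A larger cluster, led by Ccl8, Fcrls, Ccl7, Pf4, Cbr2 and Folr2, had 281 C1q cells in AAA_7 and 520 in AAA_14. It held most Mrc1 (68.5% and 74.3% of the UMIs) and much Cd163 (41.1% and 48.1%). In AAA_7 it held 40.4% of the Retnla and 55.1% of the Ccl24 UMIs, more than the cluster led by Cd209f. In AAA_14 it held 19.7% and 28.3%, less than that cluster. Retnla had 20.2 and 356 CPM there, a log2 ratio of 4.12 (3.66 to 4.66), found in 2.14% and 11.3% of its cells. Ccl24 had 33.2 and 43.6 CPM, with an interval that includes no difference (log2 0.39, -0.02 to 0.83). Arg1 had 12.9 and 2.61 CPM, lower in AAA_14 by a log2 ratio of -2.29 (-3.38 to -1.29).

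Arg1 lay mainly in another cluster. A cluster led by Spp1, Thbs1, Fn1 and Adora2b, genes of wound-type macrophages, had 230 C1q cells in AAA_7 and 48 in AAA_14, and held 79.9% and 93.0% of the Arg1 UMIs. Arg1 had 94.2 and 1032 CPM in it, a log2 ratio of 3.45 (3.20 to 3.71). It was found in 31 cells (13.5%) and 17 cells (35.4%), so its 873 UMIs there in AAA_14 rest on 17 cells. Over all C1q cells of AAA_14, 12 cells held at least 90% of the Arg1 UMIs. Median depth was 6119 UMIs in AAA_7 and 15610 in AAA_14, so these shares are not at equal depth. The level of Arg1 in this cluster was higher in AAA_14, while the cluster was 31.0% of the C1q cells in AAA_7 and 4.76% in AAA_14. Retnla had 234 CPM in this cluster in AAA_14, from 4 cells, and 12.5 CPM in AAA_7. Chil3 had 101 and 81.6 CPM in it.

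Another cluster, led by Fcgr1, Ms4a4c and Cx3cr1, genes of monocyte-derived cells, had 81 and 201 C1q cells. Retnla had 0 UMIs there in AAA_7 and 39 in AAA_14, in 7.96% of the cells (14.5 CPM, median depth 12557 UMIs). The T cells of AAA_14 had 8.14 CPM at a lower depth, so no difference in Retnla is read in this cluster. Chil3 had 11.8 and 53.6 CPM in it, a log2 ratio of 2.07 (1.02 to 3.65). A cluster of shallow cells, with a median of 941 UMIs, had 59 C1q cells in AAA_7 and 7 Retnla UMIs, all in 1 cell.

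**Figure D4:**
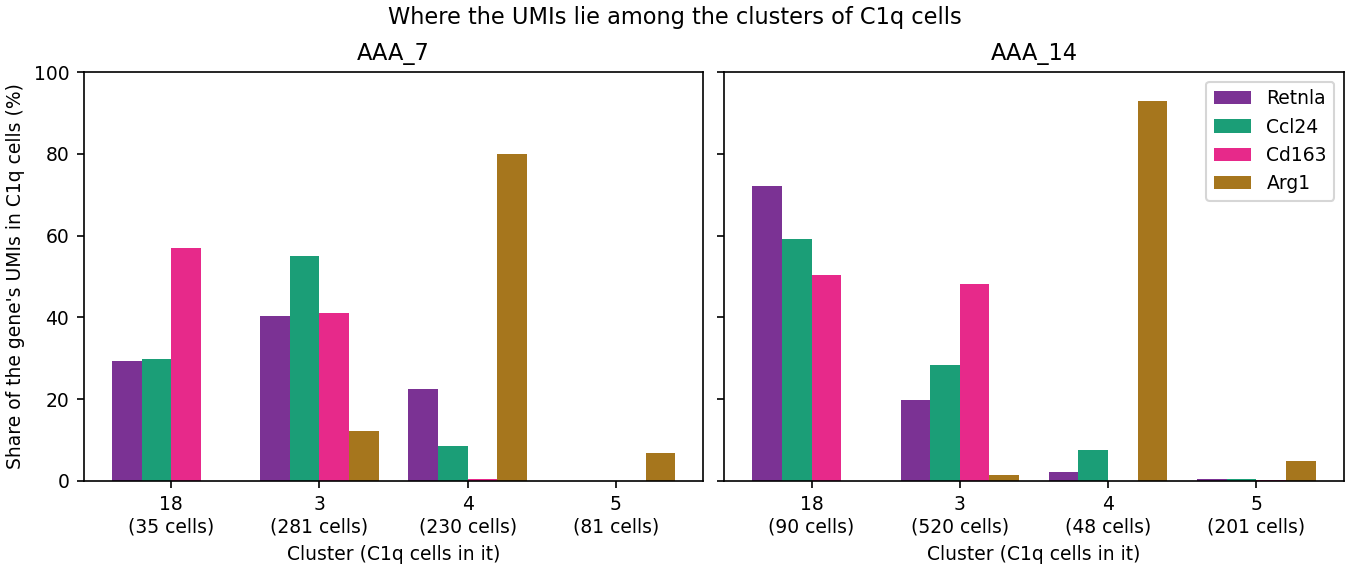
Share (percent) of each gene's UMIs in C1q cells that lay in the clusters led by Cd209f and Lyve1 (18), by Ccl8 and Folr2 (3), by Spp1 and Fn1 (4) and by Fcgr1 and Cx3cr1 (5), in AAA_7 and AAA_14. In AAA_14 cluster 18 holds 72.2% of Retnla and cluster 4 holds 93.0% of Arg1.

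A gate on resident macrophage genes held most of the Retnla, Ccl24, Cd163 and Mrc1 UMIs in both libraries. Gates on single marker sets, which overlap, placed Arg1 less clearly. C1q cells with at least 3 UMIs of Lyve1, Folr2 and Cbr2 numbered 235 in AAA_7 and 487 in AAA_14. They held 98.9% and 91.3% of the Retnla UMIs, 82.2% and 92.4% of Ccl24, 96.4% and 97.8% of Cd163, and 76.5% and 80.2% of Mrc1. Within them Retnla had 50.3 and 1598 CPM, a log2 ratio of 4.98 (4.69 to 5.31). Outside them it had 1 UMI in 507 cells of AAA_7 and 844 UMIs in 521 cells of AAA_14. Cells with at least 3 UMIs of Spp1, Vegfa and Adora2b (216 and 104) held 74.1% and 37.2% of Arg1 but 1.12% and 0.0929% of Retnla. The Lyve1, Folr2 and Cbr2 gate held 20.6% of Arg1 in AAA_7 and 39.2% in AAA_14, so by UMIs these gates did not place Arg1 in AAA_14 as the clusters did. That 39.2% lay in 8 of the 487 cells (1.64%), at 66.4 CPM over the gate. In the Spp1, Vegfa and Adora2b gate of AAA_14, 14 of 104 cells (13.5%) had Arg1, at 207 CPM. The median depths of these gates were 10243 and 14354 UMIs. Cells with at least 3 UMIs of the monocyte genes Ly6c2, Ccr2 and Plac8 (344 and 598) held 87.9% and 97.3% of Chil3. They also held 43.8% and 60.0% of Retnla, 27.1% and 33.9% of Ccl24, and 32.1% and 24.3% of Cd163. For Mrc1 they held 40.5% and 49.9%, and for Arg1 20.1% and 66.5%. In AAA_14 Retnla was found in 15.1% of the cells in this monocyte gate and 15.6% outside, so the gate did not set Retnla apart.

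MHC class II transcripts divided the members further. In AAA_14 the 424 C1q cells of the Lyve1, Folr2 and Cbr2 gate with at least 20 UMIs of H2-Aa, H2-Ab1 and H2-Eb1 had 1720 CPM of Retnla, 117 of Ccl24 and 244 of Cd163. The 63 cells of that gate below 20 had 473, 333 and 666 CPM. Ccl24 and Cd163 were thus higher in the cells with few class II transcripts, and Retnla in those with many. By cells the order for Retnla was the other way (20.8% of the 424 and 30.2% of the 63), so its level there rests on cells with many UMIs. In AAA_7 the same groups of 109 and 126 cells had 71.9 and 28.6 CPM of Retnla, 22.8 and 77.7 of Ccl24, and 146 and 491 of Cd163. The cut is a fixed number of UMIs, so the deeper library passes it more easily. This division was chosen after the data were seen.

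Outside the C1q cells, the members went separate ways. Retnla, Ccl24, Arg1, Mrc1 and Cd163 had a higher CPM in C1q cells than in all other kept cells of both AAA_7 and AAA_14, and Chil3 a lower one. The share of all genes that were higher in C1q cells was not computed, so nothing is read from how many members were. C1q cells held 95.7% and 95.9% of the Retnla UMIs of AAA_7 and AAA_14, 94.7% and 97.8% of Ccl24, 96.7% and 96.2% of Cd163, and 94.2% and 94.4% of Mrc1. Retnla had 4 UMIs in the 2487 other cells of AAA_7 and 413 in the 4278 of AAA_14. Of those 413, 164 came from a single cell with 0 C1q UMIs, among 271 cells of monocyte and macrophage clusters outside the gate. Ccl24 had 6 and 19 UMIs outside, and Cd163 2.39 and 1.65 CPM. The dendritic cells of AAA_14 had Cd163 in 5.96% of 386 cells and Mrc1 in 14.2%, the dendritic cells being among the deepest, with a median of 13958.5 UMIs.

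Chil3 was mainly found outside the C1q cells. Cells of clusters with granulocyte precursor markers had 5863 CPM of it in AAA_14, 2936 in AAA_7 and 4207 in Sham, and 71 of 74, 7 of 8 and 14 of 16 of them carried it. Neutrophils had 649, 233 and 1081 CPM in the same order. Monocyte and macrophage clusters outside the gate had 845, 819 and 535 CPM, with Chil3 in 52.4% of 271, 39.8% of 261 and 60.0% of 10 cells. Granulocyte precursors held 62.6% of all Chil3 UMIs in AAA_14, while the monocyte and macrophage clusters held 53.6% in AAA_7. One of the precursor clusters had at least 3 C1q UMIs in 26 of its 43 cells over the 3 libraries; those 26 count here as C1q cells, and its other cells are among the precursors given above. C1q cells, at 47.7 and 43.4 CPM, held 11.2% of the Chil3 UMIs of AAA_7 and 3.72% of those of AAA_14. Its close copy Chil4 had 0 UMIs in every class and library. Among C1q cells of AAA_14, Chil3 must be read beside the neutrophil markers, which had 2226 CPM in the C1q cells of AAA_7 and 4430 in those of AAA_14; their part in the Chil3 level was not tested.

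Arg1 had a second location in type 2 innate lymphoid cells, which are known to express arginase 1. There it had 12 UMIs in 7 of 26 cells of Sham, 6 in 3 of 19 of AAA_7 and 135 in 33 of 75 of AAA_14. The levels were 112 (57.7 to 195), 91.7 (33.7 to 200) and 265 CPM (222 to 313), and the shares 26.9%, 15.8% and 44.0%. The AAA_14 level lay above the intervals of both other libraries. In Sham these cells held 12 of the 14 Arg1 UMIs of the library, and in AAA_14 11.5% of them.

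**Figure D5:**
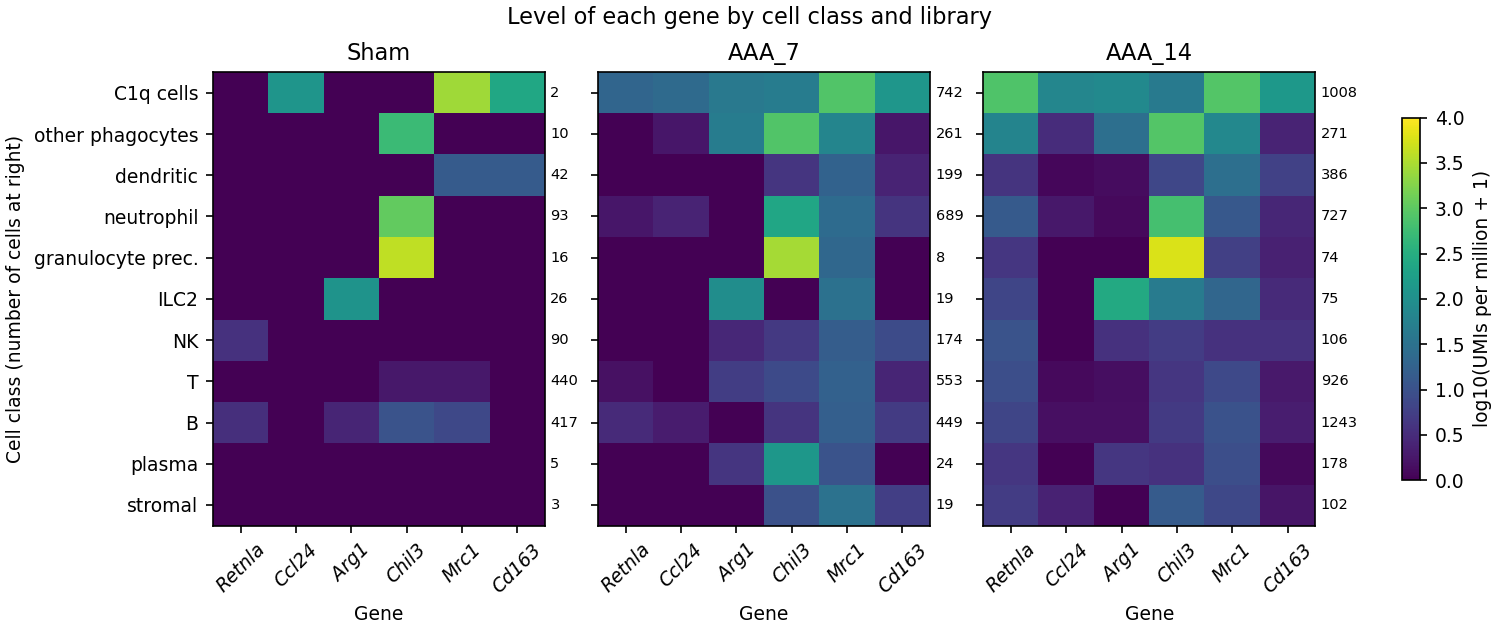
Level (CPM, colour on a log scale) of the 6 genes in each cell class of Sham, AAA_7 and AAA_14, with the number of cells of each class. Retnla and Ccl24 stand out in the row of C1q cells, Chil3 in granulocyte precursors (5863 CPM in AAA_14) and Arg1 in type 2 innate lymphoid cells (265 CPM in AAA_14).

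The other genes of the program differed in both directions. Of 63 further genes of alternative activation and resident macrophages, 62 were used and 59 had at least 10 UMIs. Of those, 6 (10.2%) were at least 2-fold higher in AAA_14 C1q cells and 9 (15.3%) at least 2-fold lower, against 10.5% and 3.68% of all genes. Their median log2 ratio was -0.08, against 0.08 over all genes.

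The receptor and its signal transducer showed no 2-fold difference. Il4ra, the receptor chain shared by interleukin 4 and 13, had 196 CPM in AAA_7 and 127 in AAA_14 (log2 -0.63, -0.75 to -0.51). Il13ra1, its partner chain, had a log2 ratio of -0.04 (-0.26 to 0.20). Stat6 had 71.4 and 62.7 CPM (log2 -0.19, -0.38 to 0.00). Of the list's 3 feedback inhibitors of cytokine signalling, Socs2 was higher in AAA_14 (log2 2.13, 8 and 96 UMIs) and Cish lower (log2 -1.79, 111 and 83 UMIs). The third, Socs1, named here after its value was seen, had 90 and 125 UMIs, a log2 ratio of -0.91 (-1.31 to -0.50) that is short of 2-fold.

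Among targets and marker genes, Mgl2, a galactose-binding lectin, had 137 and 3172 UMIs (log2 3.15, 2.91 to 3.41), and its share of C1q cells was 7.55% and 45.8%. Alox15, a lipoxygenase, had 10 and 344 UMIs (log2 3.66), of which 109 were in 1 cell. Ear2, a ribonuclease, had 14 and 134 UMIs (log2 1.84), and Cdh1, E-cadherin, 3 and 34 (log2 1.92, 0.46 to 4.47). Retnlg, a paralog of Retnla, had 125 and 2339 UMIs (log2 2.84), 442 of them in 1 cell. Retnlg is itself a neutrophil marker, and the neutrophil marker levels of C1q cells given above moved with it; their part in its value was not tested.

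The lower genes were led by Mmp12, the macrophage elastase, with 1307 UMIs in AAA_7 and 372 in AAA_14 (log2 -3.19, -3.36 to -3.02), 501 of those in AAA_7 in 1 cell. Il1rn, the interleukin 1 receptor antagonist, had a log2 ratio of -1.96 (-2.06 to -1.86) and was found in 47.6% and 29.0% of C1q cells. Egr2, a transcription factor, had -1.61, Cd5l, a secreted macrophage protein, -1.70, and Tgm2, transglutaminase 2, -1.05. The list thus held genes well past 2-fold in each direction.

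The genes whose counts per cell followed each member most closely were taken as those with the highest lower value of Pearson's r in AAA_14 (1008 cells) and AAA_7 (742 cells), among 7629 genes. These correlations run over cells of 1 library each, which share its depth and free RNA, and are descriptions. For Retnla they were led by Ccl24 (r 0.49 in AAA_14 and 0.33 in AAA_7), Fcna (0.52 and 0.25) and Ednrb (0.41 and 0.24), followed by Lyve1, Folr2, Cd209f, Fgfr1, Sulf2, F13a1 and Tns1. In cells thinned to 1000 UMIs the values were 0.31 and 0.29 for Ccl24 and 0.39 and 0.27 for Fcna. For Fgfr1 they were 0.21 and 0.04, against 0.41 and 0.19 before thinning. Retnla and Arg1 had r of -0.03 and 0.04.

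Ccl24 was followed most closely by Pf4 (0.45 and 0.28), Ednrb, Folr2, Clec10a and F13a1, and Cd163 by F13a1 (0.54 and 0.49), Lyve1, Cd209f and Folr2. Thinned, the r of Ccl24 was 0.28 and 0.15 with Pf4 and 0.22 and 0.08 with Ednrb. Mrc1 was followed by Selenop (0.84 and 0.70), Gas6, F13a1, Folr2 and Maf. Folr2 and F13a1 were therefore among the listed genes of all 4 of Retnla, Ccl24, Cd163 and Mrc1. Arg1 was followed by Fn1 (0.56 and 0.35), Apoc2, F10, Emilin2 and AA467197. Chil3 was followed by Ly6c2 (0.34 and 0.21), S100a6, Plaur, S100a4 and F10, with values of 0.11 and 0.10 for Ly6c2 once thinned. F10 was the gene that the Arg1 and Chil3 lists shared. Once thinned, its r with Chil3 was -0.014 in AAA_14 and 0.20 in AAA_7, and with Arg1 0.20 in both.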

How the data were processed

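Droplet single-cell RNA sequencing libraries (10x 3′ v2) of CD45-selected aortic cells were analysed, 1 per group. The values are UMI counts per gene and barcode, deposited by the authors as whole-number count matrices. The file headers name Cell Ranger 6.1.2, and the build is mm10, per the submitters' processing notes, which also name Seurat. Which barcodes the authors removed before deposit is not given in the sources used here. No barcode in the files had under 500 UMIs. GENCODE vM21 held 32158 of the 32285 gene identifiers.

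Cells with at least 200 genes and at most 10% mitochondrial UMIs were kept. Counts were summed per library over C1q cells (at least 3 UMIs of C1qa, C1qb and C1qc) and over other classes, and given as CPM of all UMIs of those cells. Log2 ratios had 0.5 counts added, with exact 95% intervals. With 1 library per group no test was run. Differences of at least 2-fold are a rule of size, among genes with at least 10 UMIs.

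Classes came from Leiden clustering (leidenalg 0.10.2, scanpy 1.11.5; 2000 variable genes, 30 components, 15 neighbours, resolution 1) without the 6 genes, named from marker lists. Among other limits, a cluster stayed unnamed where the second-best list reached 0.8 of the best, or where no own marker was among its 30 leading genes and under 5 were detected; these naming limits were set after the clusters were seen. Clusters 14, 16, 26 and 27 stayed unnamed. Doublets were kept, since automatic calls marked 2, 0 and 0 cells; removing the highest-scoring cells was an alternative. The ratio and correlation steps were tested on simulated data, and the thinning step was checked on the C1q cells of AAA_7.

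Named genes were all 6 members; of the pathway list, the 12 genes with the largest log2 ratio and at least 30 UMIs plus Il4ra, Il13ra1 and Stat6; and by correlation 10 genes for Retnla and 5 for each other member, of which 1 gene is not reported here. The members and lists were chosen with earlier results of these data known.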

Additional observations from a re-analysis of the deposited data

Results flagged for a closer look

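Barcodes with C1q transcripts but over the mitochondrial limit are outside the comparisons above, and they are given here because they carried the same genes. Sham had 1 such barcode, with 0 UMIs of each member, which sets no level to compare with. In AAA_14, 512 such barcodes held 1386 Retnla UMIs (813 CPM, 12.1% of the barcodes, 392 in the highest), 116 of Ccl24 (68.0 CPM, 8.98%), 42 of Arg1, 76 of Chil3, 1369 of Mrc1 and 297 of Cd163. In AAA_7, 85 such barcodes held 1 Retnla, 2 Ccl24, 1 Arg1, 2 Chil3, 115 Mrc1 and 10 Cd163 UMIs. Retnla and Ccl24 in the removed AAA_14 barcodes were thus at nearly the level of the kept C1q cells.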

How the results depend on the processing

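Of 179 values of 16 results under 16 alternatives, 149 were called close to the value reported and 28 lay outside its interval. The other 2, both of Mrc1, turned from a value whose interval lay above 0 to one below. Results that are counts of genes have no interval. By a looser rule all their values were called close, with pathway genes higher at 4 to 9 among them. Alternatives without single cells, with cells weighted equally or without a cluster of shallow cells (59 C1q cells of AAA_7 at a median of 941 UMIs) were chosen after seeing the data. The log2 ratio of Retnla was 4.95 with a gate of 1 C1q UMI and 4.43 without the 10 cells with most Retnla in AAA_14, and stayed within 4.43 to 5.62 under all. With the gate of 1 UMI, Ccl24 was found in 35.2% of Retnla carriers of AAA_14 (5.81% of the others), Retnla in 9.40% of the cells of AAA_14 and 1.18% of AAA_7, and the median of the pathway list was -0.39. Thinned, the first 2 shares were 27.6% and 8.66%. Mrc1 changed sign with a mitochondrial limit of 5% (-0.14) and with the gate of 1 UMI (-0.34). Values whose reported size was near 0 also changed sign: Chil3 with the 5% limit (0.39) and with gates of 1 and 10 UMIs (1.08 and 0.63), Cd163 with the 5% limit (-0.40) and the gate of 1 UMI (-0.34), and the pathway median in thinned cells (0.0051) and without cells with lymphocyte genes (0.06). The members past 2-fold numbered 2 or 3. Ranges of the log2 ratio were 1.10 to 2.32 for Ccl24, 0.29 to 1.15 for Arg1, -1.11 to 1.08 for Chil3 and -0.40 to 0.72 for Cd163; the cause was not tested. Pathway genes numbered 4 to 9 higher and 8 to 12 lower. No paired analysis was possible because each group has 1 library, and no replicate could be left out for the same reason.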
